A study of Homo sapiens with 12 samples.

Results

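The transcripts examined here come from the SRSF and HNRNP genes, which encode the core SR proteins and the heterogeneous nuclear ribonucleoproteins (hnRNPs). They were picked by name, as any protein-coding gene of GENCODE release 44 whose symbol begins with HNRNP, or with SRSF followed by a digit, which gave 39 of 20046 protein-coding genes, and the families were taken up with earlier results of these data known. The data are PAR-CLIP clusters from wildtype HepG2, a human liver cancer cell line, for 5 proteins: IGF2BP1, IGF2BP2 and IGF2BP3, which bind mRNA and are studied here as readers of internal m7G, and METTL1 and WDR4, the subunits of an m7G methyltransferase. All cells were grown with 4-thiouridine (4SU), crosslinked at long-wave UV and digested with RNase T1 before each protein was pulled down, and a cluster is an interval in which crosslinked reads of 1 library piled up. Each protein had 2 libraries, and IGF2BP3 had 2 more that carry the label bio2, so that 8 IGF2BP libraries stood against 4 METTL1 and WDR4 libraries. There was no mock pulldown or input library among the files used, RNA levels were not used here, and a library without a cluster in a gene may have lacked the RNA, the binding or the depth. The methods speak of plates seeded for each replicate, but if some replicates shared a culture the p-values below measure only the spread between these libraries, which may be technical. Those p-values also count libraries of the same protein as separate units and do not measure the spread between proteins.

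SR proteins carry RNA recognition motifs and a tail rich in arginine and serine, and they promote the use of nearby splice sites. hnRNPs are a broader set of nuclear RNA-binding proteins that often oppose them, and that also act in RNA export, stability and translation. Both kinds of protein are known to control their own transcripts, frequently through alternative exons that send the mRNA to nonsense-mediated decay, which makes these transcripts a meeting point of splicing and mRNA turnover. IGF2BPs mostly bind 3' UTRs and coding sequence of mature mRNA in the cytoplasm.

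Of the 102250 clusters in the 12 libraries, 200 had their midpoint in an SRSF or HNRNP gene on the same strand (0.196%). They lay in 24 of the 39 genes (61.5%), against 8907 of all 20046 protein-coding genes (44.4%). Of those 24 genes, 16 had a cluster in at least 3 libraries and 10 in at least 6 (41.7%). Of the 8907 genes, 5411 had one in at least 3 libraries and 3211 in at least 6 (36.1%), so that the shares are close. The number of these clusters ran from 6 to 26 per library, so that every share below rests on few clusters. The IGF2BP3 bio2 libraries stand apart from the other IGF2BP libraries: their clusters had a median width of 34 and 35 nt against 40 to 43 nt, and 30.5% and 29.6% of their clusters in other protein-coding genes lay in coding sequence, against 12.5% to 18.9%. For several results that rest on them, the value without them stands beside the result.

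Overlapping clusters of all libraries were merged into sites, which gave 111 sites in these genes. The sites shared by the most libraries show where on the transcripts the proteins were found, and 1 site is printed for each of the 8 genes with the most widely shared sites, from 5' to 3' on the RNA strand with T for U, cut to at most 30 nt around the middle. Capitals mark CATA, CATC or CATT, the 4-base letters CAU followed by A, C or U, a sequence that IGF2BPs are known to prefer.
HNRNPF: CATTtacaacttcttctctcctctcaaccc
HNRNPA0: tcccccttcctctcttccttccttccctcc
HNRNPU: ctCATAttacactcCATCctctctg
HNRNPC: accaacacaacactactcaaattatatttc
HNRNPL: ggcCATTacccacctcaacaacaacttcat
HNRNPUL1: ctccaccagcgcctgcctcggcccctcctc
SRSF10: ccCATCtcttctcacctctttcctag
SRSF1: tcaccttcccctttaaactaatattCATAa
All positions are in hg38. The HNRNPF site (chr10:43386944-43386973, minus strand) and the HNRNPL site (chr19:38838918-38838947, minus strand) lie in coding sequence, and the HNRNPA0 site (chr5:137754218-137754247, minus strand) lies in the 5' UTR. The other sites lie in 3' UTRs: HNRNPU at chr1:244853959-244853983 on the minus strand, HNRNPC at chr14:21210395-21210424 on the minus strand, HNRNPUL1 at chr19:41306607-41306636 on the plus strand, SRSF10 at chr1:23967068-23967093 on the minus strand and SRSF1 at chr17:58004397-58004426 on the minus strand. The sequences hold 0 to 5 G each, and 5 of the 8 hold the marked letters at least once. The HNRNPA0 sequence holds no A and no G, and the HNRNPUL1 sequence holds 18 C and 5 G in 30 nt.

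The HNRNPF site was found in 9 libraries, more than any other site in these genes. It was present in both IGF2BP1 libraries, IGF2BP2 replicate 1, all 4 IGF2BP3 libraries and both METTL1 libraries, and in no WDR4 library. HNRNPF binds G-rich RNA and regulates splicing and polyadenylation, and its close relatives HNRNPH1, HNRNPH2 and HNRNPH3 share much of its coding sequence. The site begins at coding base 912 of HNRNPF, and the most similar stretch of the coding sequence begins at the same base in HNRNPH1 and HNRNPH2 and at base 630 in HNRNPH3. These stretches follow HNRNPF here, with capitals for the bases that differ from it.
HNRNPF: catttacaacttcttctctcctctcaaccc
HNRNPH1: catttaTaaTttTttTtcAccGctcaaccc
HNRNPH2: TatttaTaaTttcttctcAcctctTaaTcc
HNRNPH3: cattGCTaaTttcttctcAccActAaaTcc
HNRNPH1 and HNRNPH2 each match 24 of the 30 bases and HNRNPH3 matches 22. The HNRNPH2 stretch (chrX:101412900-101412929, plus strand) carried a cluster in 1 library, IGF2BP3 bio2 replicate 2. The HNRNPH1 and HNRNPH3 stretches, each of which is split by an intron in the genome, carried none. Reads that cross an exon junction are not placed by an aligner that does not splice. HNRNPH1 and HNRNPH3 had no cluster anywhere else in the gene either, and why was not tested.

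**Figure D1:**
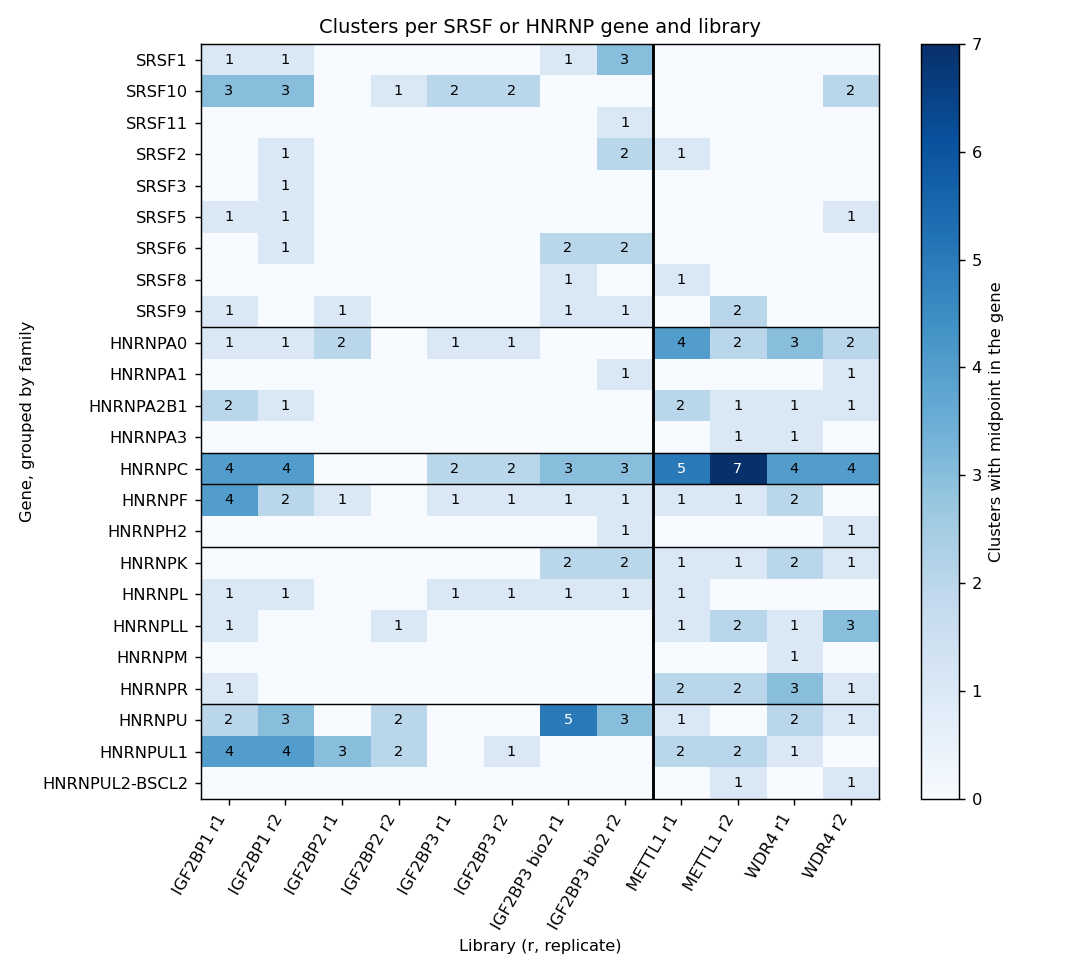
Number of clusters with the midpoint in each SRSF or HNRNP gene (rows, grouped by family) in each library (columns; r, replicate); empty cells are 0 and the thick line parts the 8 IGF2BP from the 4 METTL1 and WDR4 libraries. HNRNPC has the most clusters (38), and HNRNPR, HNRNPLL and HNRNPA0 have most of theirs to the right of the line.

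Most clusters of the IGF2BP libraries in these genes lay in 3' UTRs, and most of those of METTL1 and WDR4 in introns. In the IGF2BP libraries together, 62 of 116 clusters lay in 3' UTRs, 26 in coding sequence, 17 in introns, 7 in 5' UTRs and 4 in other exons. In the METTL1 and WDR4 libraries, 45 of 84 lay in introns, 15 in 3' UTRs, 11 in 5' UTRs, 10 in coding sequence and 3 in other exons. Other exons are those of transcripts that are not annotated as coding, such as retained-intron and nonsense-mediated decay transcripts.

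The 3' UTR share of a library's clusters in these genes was 50.0% and 58.3% for IGF2BP1, 28.6% and 83.3% for IGF2BP2, 42.9% and 50.0% for IGF2BP3, 52.9% and 57.1% for IGF2BP3 bio2, 13.6% and 4.55% for METTL1, and 28.6% and 26.3% for WDR4. The 2 groups met at IGF2BP2 replicate 1 and WDR4 replicate 1, and the mean was 52.9% ± 15.5 (SD, n = 8) for IGF2BP against 18.3% ± 11.3 (SD, n = 4) for METTL1 and WDR4. In all other protein-coding genes the means were 54.4% and 29.5%. These shares sum over genes that were chosen together and were not tested.

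The intron share was 34.6% and 12.5% for IGF2BP1, 14.3% and 16.7% for IGF2BP2, 14.3% and 12.5% for IGF2BP3, 0% and 4.76% for IGF2BP3 bio2, 50.0% and 68.2% for METTL1, and 52.4% and 42.1% for WDR4. No IGF2BP library reached the METTL1 and WDR4 libraries, with means of 13.7% ± 10.1 (SD, n = 8) and 53.2% ± 10.9 (SD, n = 4), beside 22.7% and 53.6% in other protein-coding genes. Without bio2 the IGF2BP mean was 17.5%. The coding share was 22.4% against 11.8% (19.2% and 10.5% elsewhere), with overlapping groups, and the difference of 10.6 percentage points was 6.61 without bio2 and 0.393 on clusters with a centre found once in the genome. The 5' UTR share was 8.77% against 13.2%, beside 1.84% and 3.85% elsewhere. HNRNPA0 alone held 13 of the 18 clusters in 5' UTRs, and 8 of the 18 had a centre with over 10 copies in the genome. The highest IGF2BP share, 28.6% in IGF2BP2 replicate 1, came from 2 of 7 clusters.

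**Figure D2:**
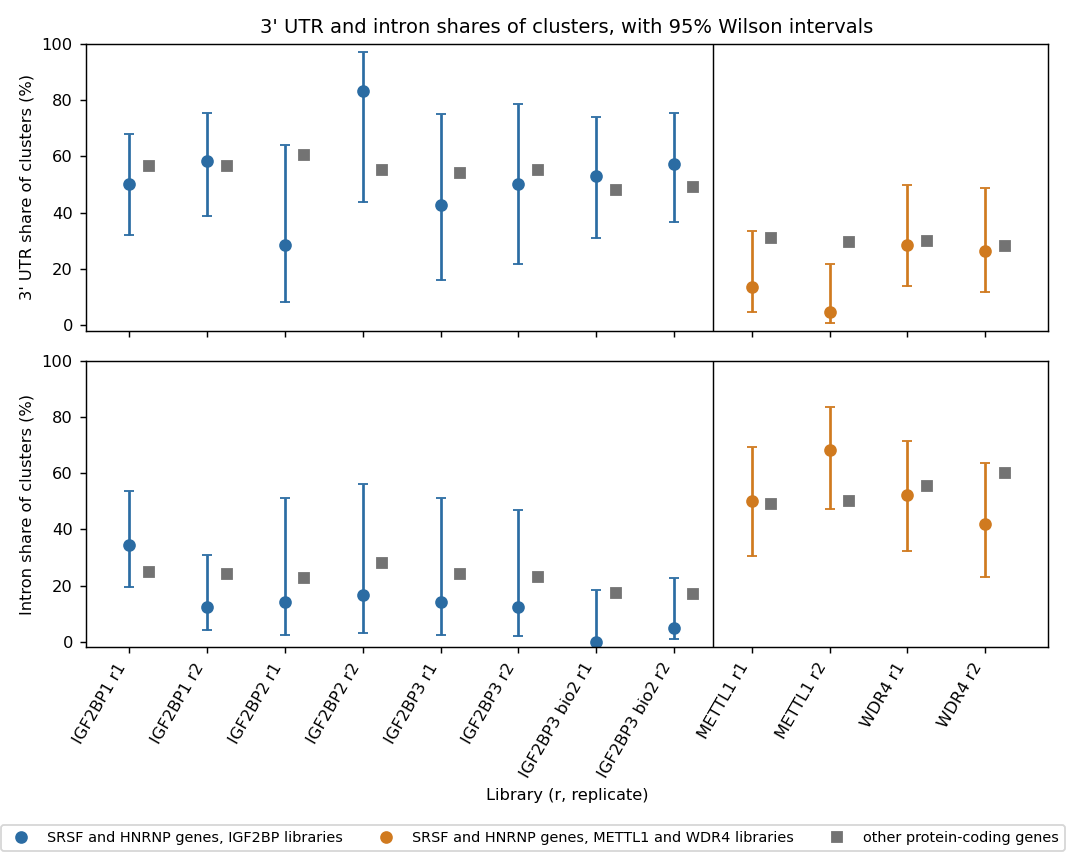
Share of each library's clusters in SRSF and HNRNP genes that lay in 3' UTRs (top) and introns (bottom), in percent, with 95% Wilson intervals that cover counting error only; squares give the other protein-coding genes. The intron shares of the 4 METTL1 and WDR4 libraries (42.1% to 68.2%) lie above all 8 IGF2BP libraries (0% to 34.6%), while the wide intervals reflect 6 to 26 clusters per library.

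Where a cluster's sequence occurs more than once in the genome, its place is less certain. The mapping allowed reads with up to 10 places, yet some clusters have a central 20 nt with far more copies than that, so that the copy count describes those 20 nt and not the number of places to which a read mapped. A centre of 20 nt was unique in the genome (single-copy) for 70 of 116 IGF2BP clusters in these genes (60.3%) and for 40 of 84 METTL1 and WDR4 clusters (47.6%). In other protein-coding genes the mean share per library was 70.9% and 55.4%. Intron clusters were the least certain: 9 of 17 in the IGF2BP libraries and 15 of 45 in the METTL1 and WDR4 libraries had a central 20 nt found once, and 5 and 13 had over 1000 copies. Over single-copy clusters alone, the difference in intron share between the groups was -24.8 percentage points (IGF2BP minus METTL1 and WDR4), against -39.5 over all clusters.

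**Figure D3:**
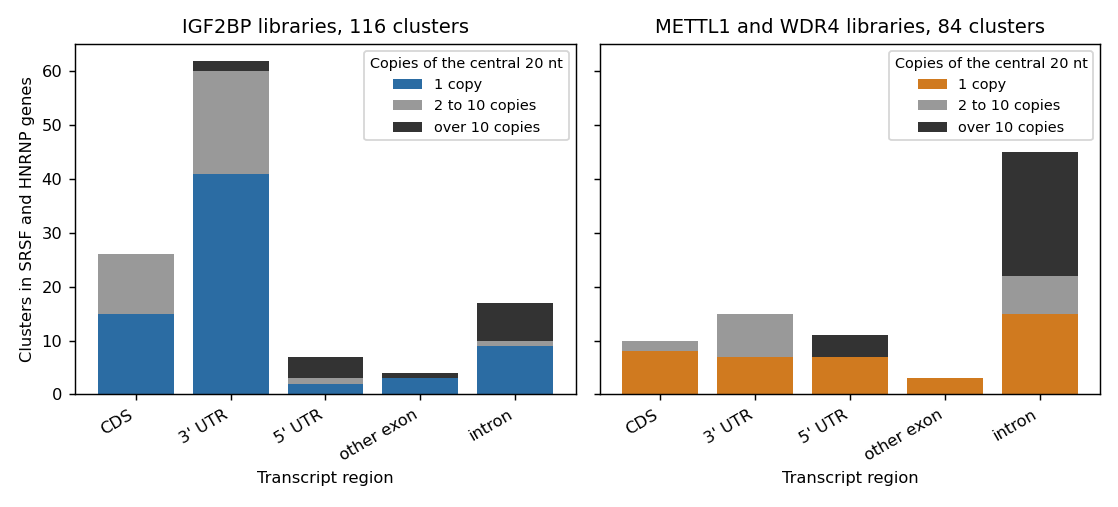
Clusters in SRSF and HNRNP genes by transcript region (horizontal axis) and by copies in the genome of their central 20 nt (colours), summed over the 8 IGF2BP libraries (left) and the 4 METTL1 and WDR4 libraries (right). Of the 45 METTL1 and WDR4 intron clusters, 23 had over 10 copies, against 7 of 17 in the IGF2BP libraries.

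The share of a library's clusters that fell in these genes was compared next. It was 0.179% and 0.153% for IGF2BP1, 0.153% and 0.0803% for IGF2BP2, 0.108% and 0.117% for IGF2BP3, 0.263% and 0.349% for IGF2BP3 bio2, 0.333% and 0.254% for METTL1, and 0.215% and 0.206% for WDR4. The IGF2BP mean was 0.175% ± 0.0894 (SD, n = 8) and the METTL1 and WDR4 mean 0.252% ± 0.0576 (SD, n = 4), with overlap that came from bio2. The 6 IGF2BP libraries without that label had 0.132% ± 0.0362 (SD) and all lay below the METTL1 and WDR4 libraries. When only exonic clusters were counted the difference changed sign, from -0.0767 to 0.0377 percentage points. The 2 bio2 libraries held 38 of the 53 IGF2BP3 clusters in these genes.

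Clusters per gene were then compared between the 8 IGF2BP and the 4 METTL1 and WDR4 libraries as clusters per 10000 clusters of the library, by a two-sided exact permutation test over all groupings of the 12 libraries into 8 and 4, for each of 5411 protein-coding genes with a cluster in at least 3 libraries. No gene passed a Benjamini-Hochberg adjusted p of 0.05, and the smallest adjusted p was 0.0591. At an unadjusted p under 0.05 the test named 1105 genes (20.4%), 494 of them (9.13%) lower in the IGF2BP libraries and 611 (11.3%) higher. Of the 16 SRSF and HNRNP genes tested, 5 had an unadjusted p under 0.05 and all 5 were lower in the IGF2BP libraries: HNRNPR, HNRNPLL, HNRNPA2B1, HNRNPC and HNRNPA0. None of the 16 was higher at that level, and none passed the adjusted threshold. With 1 value per protein, the smallest p that the 5 proteins allow is 0.1, and no gene could reach 0.05. The exact p was then 0.1 for HNRNPR and HNRNPLL and 0.2 for HNRNPA2B1, HNRNPC and HNRNPA0.

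Among the SR protein genes, 9 of 12 had a cluster, with 34 clusters in the IGF2BP and 7 in the METTL1 and WDR4 libraries, and 26 of the 41 lay in 3' UTRs. SRSF1, the founding SR protein, which also acts in mRNA decay and translation, had 1 cluster in each IGF2BP1 library, 1 and 3 in the bio2 libraries, and none in the other 8 libraries. Its 6 clusters were all in the 3' UTR, and the printed site was found in both IGF2BP1 and both bio2 libraries, 998 nt into a 3' UTR of 4490 nt. Another 2 sites, 77 and 149 nt into the 3' UTR in bio2 replicate 2, also lie in an exon of an overlapping protein-coding gene model on the same strand and cannot be told apart from it. SRSF1 had 0.983 ± 1.71 clusters per 10000 (SD, n = 8) in the IGF2BP libraries, 0.221 without bio2, and 0 in the METTL1 and WDR4 libraries, with an unadjusted exact p of 0.362 (adjusted 0.634).

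SRSF10, which represses splicing when dephosphorylated, had the most clusters of the family (13). Its counts were 3 and 3 in IGF2BP1, 0 and 1 in IGF2BP2, 2 and 2 in IGF2BP3, 0 and 0 in bio2, 0 and 0 in METTL1, and 0 and 2 in WDR4. Its 2 most shared sites lay deep in the 3' UTR of 6798 nt: the printed one at 4065 nt, in 5 IGF2BP libraries, and another at 4812 nt, in both IGF2BP1 and both unlabelled IGF2BP3 libraries. The central 20 nt of the printed site also occur on chromosome 20, where no library had a cluster. The rates were 1.42 ± 1.30 (SD, n = 8) against 0.543 ± 1.09 (SD, n = 4), and the exact p was 0.343 (adjusted 0.616).

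SRSF6, an SR protein also known as SRp55, had 2 clusters in each bio2 library and 1 in IGF2BP1 replicate 2. The bio2 clusters formed 2 sites in coding sequence, and the sequence of the upstream site has a copy in the processed pseudogene SRSF6P2, where the same 2 libraries also had a cluster. SRSF9, another SR protein, had a coding site in both bio2 libraries (chr12:120462029-120462077, minus strand) and 4 clusters in introns, 1 each in IGF2BP1 replicate 1 and IGF2BP2 replicate 1 and 2 in METTL1 replicate 2. SRSF2 (SC35), which marks nuclear speckles, had 2 clusters in bio2 replicate 2 and 1 each in IGF2BP1 replicate 2 and METTL1 replicate 1. SRSF5 had 1 in WDR4 replicate 2 and 1 in each IGF2BP1 library. The IGF2BP1 site lay 48 nt into the 3' UTR, and its centre has 11 copies in the genome. The exact p was 0.345 for SRSF6, 0.830 for SRSF9, 0.661 for SRSF5 and 1 for SRSF2. The IGF2BP mean fell without bio2 from 0.883 to 0.106 for SRSF6, from 0.761 to 0.479 for SRSF9 and from 0.496 to 0.106 for SRSF2. SRSF8 had 2 clusters. SRSF3 and SRSF11 had 1 each. SRSF4, SRSF7 and SRSF12 had none in any library, although 97.6% of the 20-base words in the exons of SRSF7 occur only once in the genome.

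The hnRNP A/B and D genes include the most abundant packaging proteins of nuclear RNA. HNRNPA0, which binds AU-rich elements, had 1, 1, 2, 0, 1, 1, 0 and 0 clusters in the IGF2BP libraries, in the order used above, and 4, 2, 3 and 2 in METTL1 and WDR4. Its rate was 1.09 ± 1.46 per 10000 (SD, n = 8) against 3.40 ± 1.81 (SD, n = 4), a difference of -2.31 with an unadjusted exact p of 0.0283 (adjusted 0.189), and IGF2BP2 replicate 1, at 4.37, lay among the METTL1 and WDR4 libraries. Of its 17 clusters, 13 lay in the 5' UTR. Without METTL1 replicate 1 the difference was -1.43 (p = 0.115), without both bio2 libraries -1.95 (p = 0.0857), and on clusters of at least the median width -0.88 (p = 0.370), all by the same exact test. The exact p was 0.0515 without IGF2BP1 replicate 1, IGF2BP1 replicate 2, IGF2BP2 replicate 2 or either bio2 replicate.

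The printed HNRNPA0 site, the polypyrimidine run, was found in 8 libraries, namely IGF2BP1 replicate 2, IGF2BP2 replicate 1, both unlabelled IGF2BP3 and all 4 METTL1 and WDR4 libraries, but its centre occurs 29 to 83 times in the genome. A neighbouring 5' UTR site (chr5:137754306-137754344, minus strand), found once in the genome, had clusters in IGF2BP2 replicate 1, METTL1 replicate 1 and both WDR4 libraries. Over single-copy clusters alone the HNRNPA0 difference was -3.92 per 10000 single-copy clusters, with an unadjusted exact p of 0.0101.

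HNRNPA2B1, which sorts RNAs and has been described as a reader of m6A, had 2 and 1 clusters in IGF2BP1, none in the other 6 IGF2BP libraries, and 2, 1, 1 and 1 in METTL1 and WDR4. The rates were 0.252 ± 0.507 (SD, n = 8) and 1.57 ± 0.969 (SD, n = 4), with an unadjusted exact p of 0.00808 (adjusted 0.132). The difference of -1.32 was -0.84 without METTL1 replicate 1 (exact p = 0.0242) and -0.73 on clusters of at least the median width (exact p = 0.321). All 3 IGF2BP1 clusters lay in sequence with at least 832 copies in the genome, while 4 of the 5 METTL1 and WDR4 clusters were single-copy. Both METTL1 libraries shared a single-copy site 103 nt from the annotated start of the gene, in an exon that only nonsense-mediated decay and retained-intron transcripts carry at that point. HNRNPA1, a splicing repressor, and HNRNPA3 had 2 clusters each. HNRNPD (AUF1), HNRNPDL and HNRNPAB had none, and neither had HNRNPA1L2 and HNRNPA1L3, in which 66.8% and 49.9% of the exonic 20-base words occur over 10 times in the genome. In HNRNPD, HNRNPDL and HNRNPAB, 84.4%, 84.1% and 80.8% of these words occur only once.

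HNRNPC binds uridine tracts and keeps Alu elements from being spliced in as exons. It had more clusters than any other SRSF or HNRNP gene: 4 and 4 in IGF2BP1, none in IGF2BP2, 2 and 2 in IGF2BP3, 3 and 3 in bio2, 5 and 7 in METTL1, and 4 and 4 in WDR4. The rates were 2.62 ± 1.84 (SD, n = 8) and 6.02 ± 2.10 (SD, n = 4), with an unadjusted exact p of 0.0222 (adjusted 0.159), which became 0.0606 and 0.0667 without METTL1 replicate 1 and replicate 2, and 0.0808 on clusters of at least the median width. Without bio2 the difference of -3.40 was -4.14. The exact p was then 0.00476 (adjusted 0.0845), the smallest the test can give with bio2 left out.

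The regions of HNRNPC that held the clusters were counted without a test. In the IGF2BP libraries 10 of its 18 clusters lay in the 3' UTR and 6 in introns, and in the METTL1 and WDR4 libraries 1 of 20 lay in the 3' UTR and 17 in introns, 11 of which had a centre with over 10 copies in the genome. Of single-copy HNRNPC clusters in introns, 5 were from the IGF2BP and 2 from the METTL1 and WDR4 libraries. The sign of the difference turned when only exonic clusters were counted, to 0.98 per 10000 higher in the IGF2BP libraries (exact p = 0.281), and over single-copy clusters, to 0.47 higher (exact p = 0.588). The printed 3' UTR site, 817 nt into the 2079 nt of the 3' UTR, was found in both IGF2BP1 and all 4 IGF2BP3 libraries and in no IGF2BP2, METTL1 or WDR4 library. A single-copy intron site (chr14:21230171-21230228, minus strand), 120 nt from the nearest exon, was found in both IGF2BP1 libraries, both unlabelled IGF2BP3 libraries and WDR4 replicate 2. The 4 hnRNP C-like genes HNRNPCL1 to HNRNPCL4 had no cluster, and 1.18% to 18.0% of their exonic 20-base words occur only once.

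In the F/H family, HNRNPF had 4 and 2 clusters in IGF2BP1, 1 and 0 in IGF2BP2, 1 in each of the 4 IGF2BP3 libraries, 1 and 1 in METTL1, and 2 and 0 in WDR4. Of these 15 clusters, 9 were at the coding site described above and 6 in introns. Its rates were 1.55 ± 0.789 (SD, n = 8) and 1.18 ± 0.867 (SD, n = 4), with an exact p of 0.469 (adjusted 0.711). The sign of the difference turned without WDR4 replicate 2 (-0.02) and on clusters of at least the median width (-0.32). HNRNPH2 had 2 clusters, and HNRNPH1 and HNRNPH3 had none.

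HNRNPR, HNRNPLL, HNRNPL, HNRNPK and HNRNPM make up a mixed group in which every gene had a cluster, 13 in all in the IGF2BP libraries and 22 in METTL1 and WDR4, with 19 of the 35 in introns. HNRNPR, a close relative of SYNCRIP, had 1 cluster in IGF2BP1 replicate 1, none in the other 7 IGF2BP libraries, and 2, 2, 3 and 1 in METTL1 and WDR4. Every METTL1 and WDR4 library therefore lay above every IGF2BP library, a pattern of 85 of the 5411 genes tested (1.57%). The rates were 0.0862 ± 0.244 (SD, n = 8) and 2.37 ± 0.926 (SD, n = 4), and the exact p of 0.00202 is the smallest the test can give (adjusted 0.0591), shared by 185 genes. All 9 clusters lay in introns, and 6 of the 8 METTL1 and WDR4 clusters were single-copy. Both METTL1 libraries shared an HNRNPR site 329 nt from the annotated start of the gene (chr1:23343989-23344025, minus strand), and METTL1 replicate 2 and WDR4 replicate 2 shared another 1997 nt from it.

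HNRNPLL, a regulator of CD45 splicing in lymphocytes, had 1 cluster each in IGF2BP1 replicate 1 and IGF2BP2 replicate 2, and 1, 2, 1 and 3 in METTL1 and WDR4. The rates were 0.254 ± 0.501 (SD, n = 8) and 2.03 ± 0.978 (SD, n = 4), with an unadjusted exact p of 0.00404 (adjusted 0.0911). Of the 9 clusters, 8 lay in introns, and 2 of the 9 were single-copy, so that too few were left for a test on single-copy clusters.

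HNRNPL, which binds CA-rich RNA, showed the opposite arrangement at its coding site. Both IGF2BP1 libraries and all 4 IGF2BP3 libraries had exactly 1 HNRNPL cluster each, all at the printed site, and IGF2BP2, METTL1 and WDR4 had none there. The METTL1 replicate 1 cluster in HNRNPL lay in an intron. Over all clusters the HNRNPL rates were 0.944 ± 0.703 (SD, n = 8) and 0.378 ± 0.756 (SD, n = 4). The groups overlapped, and the exact p was 0.246 (adjusted 0.521). Without bio2 the IGF2BP mean was 0.723 and the exact p 0.452. Over exonic clusters alone, 13 genes of these families could be tested. HNRNPL was higher in the IGF2BP libraries at an unadjusted p under 0.05 (exact p = 0.0485, adjusted 0.211). So were 20.4% of all 3781 genes in that test. Lower at that level were HNRNPA0 (exact p = 0.0283, adjusted 0.183) and HNRNPA2B1 (exact p = 0.00202, adjusted 0.0513), as were 2.51% of the genes. The site also lies in an exon of another protein-coding gene model on the same strand, and its centre has a copy in the pseudogene HNRNPLP2, where no library had a cluster.

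HNRNPK, a KH-domain protein that binds C-rich RNA, had 2 clusters in each bio2 library, none in the other 6 IGF2BP libraries, and 1, 1, 2 and 1 in METTL1 and WDR4. Its exact p was 0.428 with all libraries. Without bio2, which held all of its IGF2BP clusters, the 6 remaining IGF2BP libraries were at 0. The exact p was then 0.00476 (adjusted 0.0845), which follows from the libraries left out and is no support for a difference. That p is the smallest the test can give with bio2 left out, and HNRNPR and HNRNPC had it too. In that setting 9.34% of 5021 genes were lower in the IGF2BP libraries at an unadjusted p under 0.05. Of the 13 SRSF and HNRNP genes tested there, 5 were, HNRNPK among them. None of its 9 clusters was single-copy, and 21.9% of its exonic 20-base words occur once in the genome. A 3' UTR site found in METTL1 replicate 2 and both WDR4 libraries has copies on chromosomes 2 and 5, where 3 and 2 libraries had clusters, and a coding site of both bio2 libraries has a copy in HNRNPKP1, where 2 libraries had clusters. HNRNPM had 1 cluster, in an intron, in WDR4 replicate 1.

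The U family had 40 clusters, 29 in the IGF2BP and 11 in the METTL1 and WDR4 libraries, and 29 of the 40 lay in 3' UTRs. HNRNPU (SAF-A), which binds chromatin and RNA, had 2 and 3 clusters in IGF2BP1, 0 and 2 in IGF2BP2, none in the unlabelled IGF2BP3 libraries, 5 and 3 in bio2, 1 and 0 in METTL1, and 2 and 1 in WDR4. Its rates were 2.34 ± 2.77 (SD, n = 8) and 1.16 ± 0.869 (SD, n = 4), with an exact p of 0.483 (adjusted 0.716). Without bio2 the IGF2BP mean was 0.995, below that of METTL1 and WDR4.

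HNRNPU had 7 sites in its 3' UTR, all within the first 934 nt of 4156. The printed site at 482 nt was found in 7 libraries, both WDR4 libraries among them, and a site at 40 nt was found in both IGF2BP1 and both bio2 libraries. The 20 nt at the centre of the site at 482 nt occur a second time, on chromosome 7 outside any annotated gene of that strand, and 10 libraries had a cluster at that copy, more than at the HNRNPU site itself. The files do not tell from which of the 2 places those reads came.

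HNRNPUL1, a relative of HNRNPU that acts in DNA repair and RNA export, had 4 and 4 clusters in IGF2BP1, 3 and 2 in IGF2BP2, 0 and 1 in IGF2BP3, none in bio2, 2 and 2 in METTL1, and 1 and 0 in WDR4. It was the 1 gene of these families with an exonic site in both IGF2BP2 libraries. Its 3' UTR sites lay 59, 140 and 358 nt into a 3' UTR of 1225 nt, all single-copy. The printed C-rich site at 59 nt was found in 6 libraries, and the site at 358 nt in both IGF2BP1 and both IGF2BP2 libraries and no other. The rates were 2.00 ± 2.21 (SD, n = 8) and 1.59 ± 1.34 (SD, n = 4), with an exact p of 0.762 (adjusted 0.890). The difference of 0.41 turned its sign without IGF2BP2 replicate 1 (-0.24), without WDR4 replicate 2 (-0.12) and on clusters of at least the median width (-1.17). The readthrough gene HNRNPUL2-BSCL2 had 2 intron clusters, 1 of which also lies in an exon of BSCL2, and HNRNPUL2 had none.

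**Figure D4:**
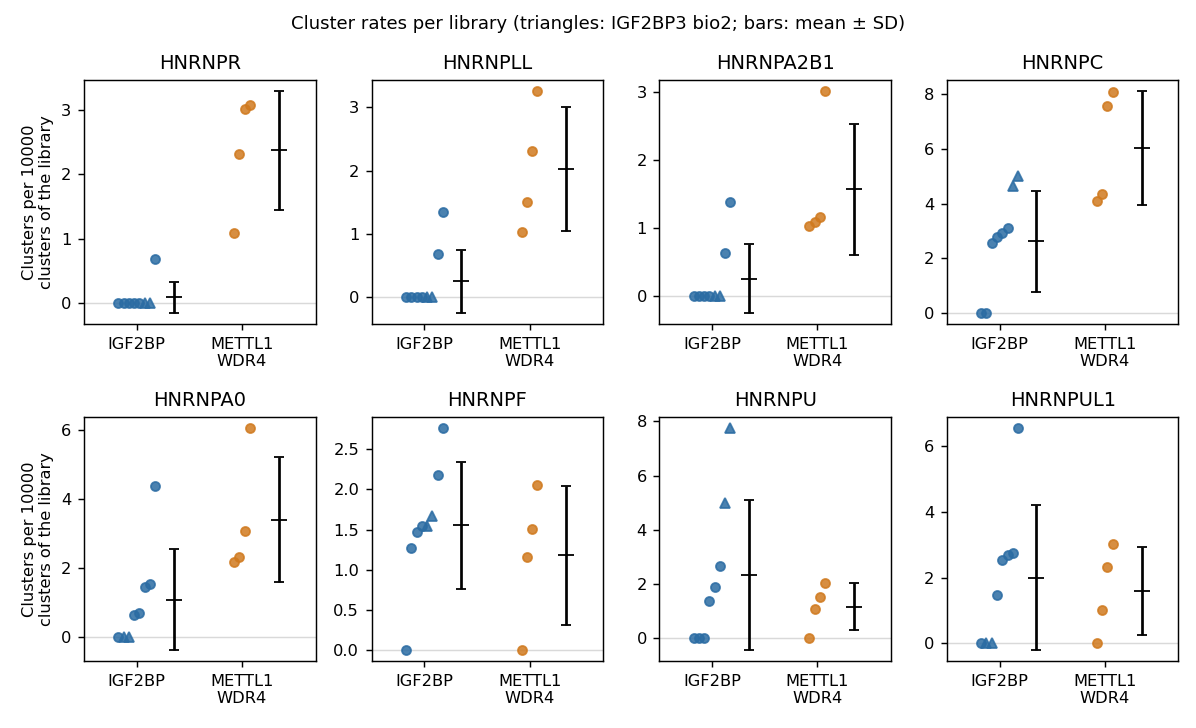
Clusters per 10000 clusters of the library (vertical axis, a scale of its own in each panel) for the 5 genes with an unadjusted exact p under 0.05 and for HNRNPF, HNRNPU and HNRNPUL1; each point is a library, triangles are IGF2BP3 bio2, and bars are the mean ± SD of 8 IGF2BP or 4 METTL1 and WDR4 libraries. Only HNRNPR shows no overlap between the groups.

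Sites shared between libraries of a protein give another view of the same genes. A gene was counted for a protein when an exonic site was present in at least 2 of that protein's libraries, among the 24 genes with any cluster. IGF2BP1 had 8 such genes, against 36.2% of all protein-coding genes with a cluster: HNRNPC, HNRNPF, HNRNPL, HNRNPU, HNRNPUL1, SRSF1, SRSF10 and SRSF5. IGF2BP2 had 1 (HNRNPUL1), against 13.4%. IGF2BP3 had 10, against 32.0%, and 5 without bio2, against 22.7%, namely HNRNPA0, HNRNPC, HNRNPF, HNRNPL and SRSF10. The genes that came in with bio2 were HNRNPK, HNRNPU, SRSF1, SRSF6 and SRSF9.

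METTL1 had 3 such genes, HNRNPA0, HNRNPA2B1 and HNRNPF, against 6.66% of all genes, and WDR4 had 3, HNRNPA0, HNRNPK and HNRNPU, against 7.60%. HNRNPA0 was the gene that both subunits had. With at most 10 of 24 genes a protein, these counts were set beside the background without a test.

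Of the 111 sites, 73 (65.8%) were found in 1 library, as were 60.6% of all 45174 sites of the series, and 6 were found in 6 or more libraries (5.41%, against 9.04% of all sites). IGF2BP libraries alone held 42 sites, 22 of them in 3' UTRs. METTL1 and WDR4 libraries alone held 55, 35 of them in introns. Both sides had 14 of the 111 sites, and 6412 of all 45174 sites of the series. The 33 sites in the 3' UTR of the main transcript lay 40 to 4812 nt from the end of the coding sequence, with a median of 482 nt, and 6 of them within the first 100 nt. The 46 intron sites lay a median of 1581.5 nt from the nearest annotated exon, and 17 of them were single-copy.

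**Figure D5:**
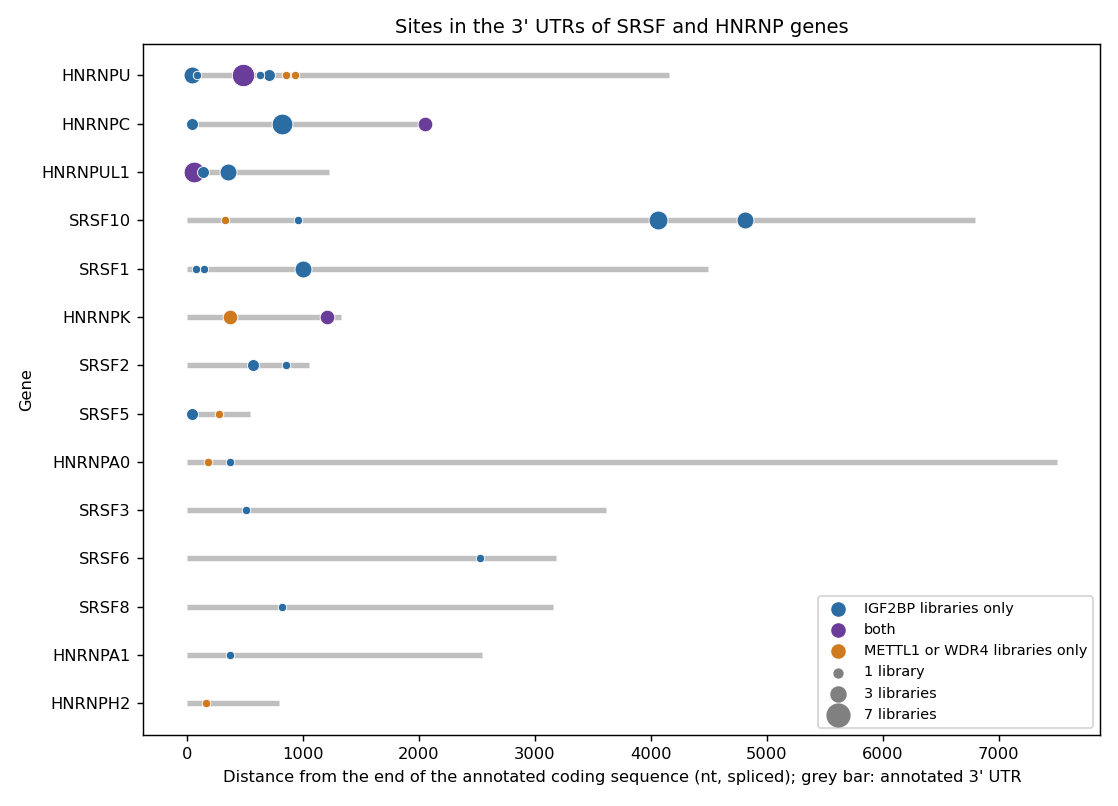
Position of each 3' UTR site (points; size, number of libraries) along the annotated 3' UTR (grey bar) of the main transcript of each gene, in spliced nt from the end of the coding sequence, coloured by the libraries that held it. Sites of HNRNPU and HNRNPUL1 gather near the coding end, and the most shared SRSF10 sites lie 4065 and 4812 nt from it.

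The CAU letters marked in the printed sites occurred in 69 of 116 IGF2BP clusters in these genes as deposited (59.5%, 95% Wilson interval 50.4% to 68.0%) and in 25 of 84 METTL1 and WDR4 clusters (29.8%, 21.0% to 40.2%). Clusters in other protein-coding genes held them in 60.6% and 36.3%. By protein the shares were 56.0% of 50 clusters for IGF2BP1, 23.1% of 13 for IGF2BP2, 71.7% of 53 for IGF2BP3, 18.2% of 44 for METTL1 and 42.5% of 40 for WDR4. The same shares in other protein-coding genes were 56.7%, 45.9%, 71.7%, 33.8% and 38.3%. Of the 53 IGF2BP3 clusters, 38 came from bio2. Clusters of replicates at the same site share their sequence, so that these intervals cover counting error only and are too narrow. Matches of these letters are a description and do not mark a bound base.

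As a wider comparison, 88 other genes of splicing regulation and the spliceosome were examined the same way, among them PTBP1, the MBNL and SF3 genes and the SR protein kinases. Of these, 78 (88.6%) had a cluster, with a median of 6 libraries per gene, against 4.5 for the 24 SRSF and HNRNP genes with a cluster and 4 for all such protein-coding genes. Their share of a library's clusters was 1.20% ± 0.185 in the IGF2BP libraries (SD, n = 8) and 1.03% ± 0.0643 in METTL1 and WDR4 (SD, n = 4). Of the 65 tested, 8 were higher and 7 lower in the IGF2BP libraries at an unadjusted p under 0.05, and none after adjustment. Clusters in all 12 libraries were found for 9 of them, of which MBNL3, SRRM2, MATR3, KHSRP and PCBP2 had the most clusters. MBNL3, a muscleblind-like splicing factor, had 14.8 clusters per 10000 in the IGF2BP and 4.01 in the METTL1 and WDR4 libraries, with an exact p of 0.00202 (adjusted 0.0591), and SRRM2, MATR3, KHSRP and PCBP2 had exact p of 0.673 to 0.879.

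Pseudogenes are a known source of misplaced reads for these families. Of 136 annotated pseudogenes named after an HNRNP or SRSF gene, 7 held 9 clusters in all, and 1 of the 9 had a centre found once in the genome.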

How the data were processed

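PAR-CLIP was made in wildtype HepG2 cells for IGF2BP1, IGF2BP2, IGF2BP3, METTL1 and WDR4. As described in the study, the authors filtered, clipped and collapsed reads with the FASTX toolkit, kept reads over 15 nt, mapped them with bowtie (-v 3 -m 10 --best --strata), and called clusters in each library with PARalyzer. Tool versions and PARalyzer settings were not given in the sources used here, and hg38 was named in the submitters' processing notes. The deposited values are genome positions (other than any count or score): each line is a cluster interval with its strand, so that read depth per cluster was unknown. Libraries held 4581 to 15701 clusters, and all of them, with 4209 on other contigs, were used. Starts were read as counted from 1: the base before a cluster was G in 74.5% to 94.7% of clusters per library, and the first base in 0.897% to 5.56%.

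The midpoint of each cluster was annotated with GENCODE release 44, same strand, in the order coding sequence, 3' UTR, 5' UTR, other exon, intron. Groups came from sample titles. The central 20 nt of clusters were counted on both strands of hg38. Distances into a 3' UTR follow the Ensembl canonical transcript and start after the last annotated coding base. Rates were compared per gene by the exact permutation test described, written in Python 3.11.15 with NumPy 2.4.6, pandas 2.3.3, SciPy 1.17.1 and pysam 0.24.0 and tested on simulated data, with Benjamini-Hochberg adjustment over 5411 genes. Intervals are 95% Wilson. MATR3 has 2 gene identifiers, of which the one with more clusters was used. Named with values per library were up to 20 genes, ranked by libraries with a cluster, and sequences were printed for up to 8 sites, 1 per gene, ranked by libraries.

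Replicate numbers did not pair the libraries: the 15 correlations between groups of the difference between replicates ran from -0.0475 to 0.0443. The SRSF and HNRNP genes and the list of other splicing genes were chosen with earlier results of these data known. Alternatives were leaving out each library, leaving out bio2, 1 value per protein, a replicate block, single-copy clusters, wide clusters, main chromosomes, any overlap, exonic or 3' UTR clusters alone, another denominator, another filter and other annotation rules.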

Additional observations from a re-analysis of the deposited data

Results flagged for a closer look

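In 27 groups of 4 or 8 libraries checked for a library far from the rest, 3 stood out. The rule is meant to flag about 1 in 20 by chance when values are normally distributed. Cluster rates rest on few clusters and many zeros, so that the chance rate for them was not established. HNRNPA0 had 4.37 clusters per 10000 in IGF2BP2 replicate 1, and the next IGF2BP library had 1.55. HNRNPUL1 had 6.55 per 10000 in the same library, and the next IGF2BP library had 2.76. That library had 4581 clusters, the fewest of all, so that 1 cluster weighs most there. HNRNPA2B1 had 3.02 per 10000 in METTL1 replicate 1, from 2 clusters, and the next of the METTL1 and WDR4 libraries had 1.16.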

How the results depend on the processing

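Counts were small and no read depth was known, so that an absent cluster says little. The test on 3' UTR clusters alone covered 2709 genes and had 116 genes with an adjusted p of at most 0.05, none of them among the 7 SRSF and HNRNP genes it included, where the test on all clusters had 0. Genes with an unadjusted p under 0.05 numbered 1105 over all. They numbered 650 on 3' UTR clusters, 477 on clusters of at least the median width and 0 with 1 value per protein. With each library left out they numbered 689 to 1170. The low counts came without METTL1 replicate 2 (689), WDR4 replicate 1 (705) and WDR4 replicate 2 (706). In all of these settings except the 3' UTR one, the adjusted count was 0. With the replicate block (225 groupings) 970 genes had an unadjusted p under 0.05, 5 SRSF and HNRNP genes among them the same genes as without it, and the adjusted count was 0 with and without the block.

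The intron difference of -39.5 percentage points was -24.8 on single-copy clusters, -57.6 on clusters of at least the median width, and -43.2 to -34.5 with each library left out. The 3' UTR difference of 34.6 points ran from 30.1 to 38.1 and the coding difference of 10.6 points from 8.26 to 14.2 with each library left out, while the coding difference was 0.393 on single-copy clusters, 6.08 on clusters of at least the median width and 6.61 without bio2. The share of clusters in these genes differed by -0.0767 points, by -0.102 to -0.0499 with each library left out, and by 0.0377 on exonic clusters alone. The cause was not tested. Of 333 values for 16 genes under 23 alternatives, 18 had the other direction and 0 passed the adjusted threshold.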

Other observations

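A further pattern was looked for after the values above had been seen and is given as a description. Among clusters with a centre found once in the genome, 14 of 40 METTL1 and WDR4 clusters in SRSF and HNRNP genes (95% Wilson interval 22.1% to 50.5%) lay within 1000 nt of the annotated start of the gene, against 1 of 70 IGF2BP clusters (1.43%, 0.253% to 7.66%). In other protein-coding genes the shares were 8.83% of 12227 and 2.93% of 35518. Libraries that share a site repeat its cluster, as both METTL1 libraries did in HNRNPA2B1 and in HNRNPR. The Wilson intervals therefore cover counting error only and are too narrow. The members near the start were HNRNPA0 (5 METTL1 and WDR4 clusters and 1 IGF2BP cluster, 29 to 935 nt from it), HNRNPA2B1, HNRNPA3 and HNRNPR (2 METTL1 and WDR4 clusters each), and HNRNPL, SRSF2 and SRSF8 (1 each). By library the shares were 7 of 11 and 4 of 9 for METTL1 and 2 of 11 and 1 of 9 for WDR4, and among the IGF2BP libraries only IGF2BP2 replicate 1 had any (1 of 5). The means per library differed by -31.8 percentage points (IGF2BP minus METTL1 and WDR4), by -22.1 to -39.6 with each library left out, by -25.0 within 500 nt and by -45.5 within 2000 nt. METTL1 replicate 1 alone held 7 of the 14 clusters.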
